A study of Mus musculus with 7 samples.

Results

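Open chromatin was examined at 10 AP-1 and immediate early genes. These were the AP-1 subunits Fos, Fosb, Fosl1, Fosl2, Jun, Junb and Jund, the related factor Atf3, and the co-induced genes Egr1 and Ier2. They were taken by name from 20665 autosomal protein-coding genes, and each was studied through the peaks lying inside its gene body or within 50 kb of it. ATAC-seq, in which a transposase tags DNA that nucleosomes do not cover, had been run on 7 mouse libraries in 5 groups. The embryonic cell sheet that gives rise to tooth epithelium, first-arch ectoderm, was loosened with Dispase II and peeled off at embryonic day 11.5 (2 libraries). Sox2-positive cells were sorted at postnatal day 2 from the labial cervical loop of the lower incisor, after digestion to single cells with collagenase and neutral protease, from a Sox2-GFP line in which the Sox2 promoter drives the fluorescent protein (2 libraries). The submitters name these dental epithelial stem cells, or DESC, and they are called sorted or Sox2-positive cells here. A whole lower incisor, a lower first molar and an upper first molar were each profiled once at postnatal day 2, and for these the labels mention dissection and no digestion to single cells. Strain and genotype of the ectoderm and whole-tooth mice, and the number of animals in a library, are not given in the sources used here.

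AP-1 is a dimer of a Jun protein with a Fos protein, or of 2 Jun proteins, held together by leucine zippers. Several of its subunits are encoded by immediate early genes. Promoters of such genes respond to growth factor, calcium and stress signals within minutes and without new protein synthesis. They do so largely through serum response factor and CREB-type factors already present in the cell. Egr1 is a zinc-finger factor and Ier2 a nuclear protein induced by the same signals, and Atf3 is a stress-induced bZIP factor that can pair with Jun proteins. Transcripts of these genes are known to rise when tissue is digested and sorted, which is why sorted cells and teeth not described as digested were set side by side here. Digestion, sorting, cell type and the reporter line all separate these groups at once, so their parts in any difference cannot be told apart.

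The reference promoter table (RefSeq, GRCm38.p6) held starts for 7 of the 10 genes. The 120 bases before the start are printed for the 5 genes with a cyclic AMP-type or Jun-type element there, and for Jund, because the Jund peak began downstream of this sequence in 6 of the 7 libraries. Bases are in lower case 5′ to 3′, and capitals mark every match on either strand to TGACG (the core of the cyclic AMP response element), TGACATCA (an AP-1-like site), the GC box GGGCGG, the CCAAT box CCAAT or the TATA box TATAAA.
Fos, plus strand, chr12:85473770-85473889: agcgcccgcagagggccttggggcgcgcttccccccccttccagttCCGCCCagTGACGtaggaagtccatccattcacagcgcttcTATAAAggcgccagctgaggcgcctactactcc
Fosb, minus strand, chr7:19310046-19310165: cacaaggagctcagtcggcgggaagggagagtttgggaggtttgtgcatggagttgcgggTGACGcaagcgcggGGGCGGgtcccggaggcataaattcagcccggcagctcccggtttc
Jun, minus strand, chr4:95052223-95052342: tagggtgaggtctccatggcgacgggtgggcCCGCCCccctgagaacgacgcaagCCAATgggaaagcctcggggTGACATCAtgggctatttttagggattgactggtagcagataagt
Junb, minus strand, chr8:84978749-84978868: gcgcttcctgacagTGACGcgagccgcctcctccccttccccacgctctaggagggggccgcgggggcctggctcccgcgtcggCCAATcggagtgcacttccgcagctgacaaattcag
Atf3, minus strand, chr1:191183334-191183453: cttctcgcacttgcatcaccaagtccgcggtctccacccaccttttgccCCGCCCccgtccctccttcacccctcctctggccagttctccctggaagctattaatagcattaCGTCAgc
Jund, plus strand, chr8:70697619-70697738: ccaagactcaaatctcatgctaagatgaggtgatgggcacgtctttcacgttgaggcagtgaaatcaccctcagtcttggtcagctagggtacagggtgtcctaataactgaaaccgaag
Over the 250 bases before the start, TGACG occurred in 4 of the 7 genes (Fos, Fosb, Junb and Atf3) and in 17.8% of the 32851 promoters in the table. The Jun-type site TGACATCA was found in Jun alone, 45 to 38 bases before its start, and in 2.93% of all promoters. GC boxes were found in 5 of the 7 genes, against 32.7% of promoters. Of the motifs searched first, the consensus AP-1 site TGANTCA (6.75% of promoters), the full element TGACGTCA (1.55%) and the CArG box bound by serum response factor (1.47%) had no match in these windows. The Jund stretch was 47.6% G and C over 250 bases, below the 58.4% to 68.8% of the other 6 genes and the median of 52.4% over all promoters.

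The lists held 80850 and 49719 autosomal peaks in ectoderm, 41829 and 38326 in sorted cells, and 62074, 68877 and 67193 in the incisor, lower molar and upper molar. Because the lists differ in length and hold no read counts, peaks and regions are counted among the 38000 autosomal peaks of each library with the largest −log10 p and again among all peaks, while ranks are compared at equal length only. At equal length the Sox2-positive lists kept 90.8% and 99.1% of their peaks and the whole-tooth lists 55.2% to 61.2%, so weaker peaks entered from the sorted cells. Marker genes bear on what the libraries hold. Gene-start peaks at 7 markers of dental epithelium numbered 6 in each Sox2-positive library, 4 in incisor and 5 in each molar, and the start of Sox2 itself ranked only in ectoderm and Sox2-positive cells. Other epithelial markers ran the other way. Krt5, Krt14 and Cdh1, 3 of the 7, had fewer peaks in both sorted libraries than in each tooth, Sox2 had more, and the peaks of the list summed to 37 and 33 in sorted cells against 39, 53 and 51. The Cdh1 start ranked 12312 and 12699 in sorted cells, 13585 in incisor and 4813 and 4900 in the molars. For Krt5 these ranks were 21829 and 16003, 20937, and 5175 and 5710, and for Krt14 4732 and 6168, 8901, and 2739 and 1318. At 7 markers of dental mesenchyme the counts were 6 and 6 in sorted cells, 6, 5 and 5 in the whole teeth and 2 and 2 in ectoderm. The start of the mesenchymal collagen gene Col1a2 ranked 4176 and 2858 of 38000 in the Sox2-positive libraries, 3131 in incisor and 9637 and 9365 in the molars, against 31380 and 18531 in ectoderm. Trp63 and Dspp had no start peak in any library. Of the 5 endothelial markers 1, Kdr, had a start peak in the Sox2-positive libraries, at ranks 35398 and 30405. It also had one in both ectoderm libraries, at ranks 20151 and 15735, and none of the 5 had one in the whole teeth. Of the 5 blood and immune markers 2 had one in each postnatal library. The part of these cell types in the results below was not tested, and in bulk chromatin fewer cells with an open site and less opening per cell cannot be told apart.

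A summit within 1 kb of the start was found in all 7 libraries for 7 of the 10 genes at equal list length (48.9% of all genes), and the exceptions were Fosl1, Junb and Jund. With all peaks 8 genes met this measure (52.9% of all genes). By a looser measure added after the data were seen, a peak that reached within 1 kb of the start wherever its summit lay, all 10 genes were open near the start in all 7 libraries, against 51.4% of all genes at equal length and 55.7% with all peaks. For Fosl1, Egr1 and Ier2 the reference tables used here give no strand, so either end of the gene counted as its start. Fosl1 met the looser measure in all 7 libraries at equal length only because of this. In Sox2-positive replicate 1 and incisor it rested on a peak past the end at 5455938, with summits 1657 and 1617 bp outside. No peak near the other end of Fosl1 was kept in those libraries. Peak values are the authors' own, and they are used to rank peaks within a library only, where rank 1 is the highest of 38000. Ranks are by −log10 p unless signal, the peak's area under the significance curve, is named.

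Jun (chr4:95049036-95052222, minus strand), the most studied partner of Fos, had a peak near the top of each library by signal. Its peak covered the start with widths of 4228 and 4319 bp in ectoderm, 4053 and 3254 bp in sorted cells, 4032 bp in incisor, 3709 bp in lower molar and 2692 bp in upper molar. It was wider than the 3187 bp gene in 6 of the 7 libraries. By signal it ranked 6 and 14 of 38000 in ectoderm, 27 and 49 in sorted cells, 57 in incisor, 42 in lower molar and 116 in upper molar. By −log10 p it ranked 655 and 311 in ectoderm, 788 and 1163 in sorted cells, and 1344, 1172 and 1368 in the incisor, lower molar and upper molar. Both Sox2-positive ranks stood above all 3 whole-tooth ranks on this measure, but replicate 2 stood only just above lower molar, and by signal the groups overlapped. Jun was 1 of 7 genes so ordered, where 21.6% of the 10432 genes with start peaks in all 5 libraries were.

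Junb (chr8:84976909-84978748, minus strand) encodes a Jun protein that often opposes Jun. The site 66 bp before its start, near the core TGACG at 106 to 102 bases upstream, was covered in every library, yet a peak that ranked higher or, where both were joined, the same had its summit 2099 bp downstream of the start, beyond the end of the gene. That summit recurred within 16 bp in all 7 libraries. The covering peak ranked 2654 and 2977 in ectoderm, 3496 and 2520 in sorted cells, 2424 in incisor, 2456 in lower molar and 1431 in upper molar. Both sorted ranks stood below all 3 whole-tooth ranks here, replicate 2 by a small margin. At the site 66 bp before the start the covering peak ranked 14125 and 13833 in ectoderm, 9344 and 4212 in sorted cells and 5303 in lower molar. In incisor and upper molar a peak of 3429 and 4169 bp ran from the start to the downstream summit, so no separate rank exists there. A recurrent summit 1311 bp upstream was also covered in all 7 libraries, with ranks from 6248 in lower molar to 21657 in ectoderm replicate 1.

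Jund (chr8:70697739-70700616, plus strand), the Jun gene with the steadiest known expression, was open over its body, and its peak began downstream of the tabulated start in 6 libraries and crossed it in incisor only. The main summit lay 1213 bp downstream of that start and recurred within 22 bp in 6 libraries. Its peak ranked 5153 and 2268 in ectoderm, 1404 and 1207 in sorted cells, 1549 in incisor, 1852 in lower molar and 3006 in upper molar. Both Sox2-positive ranks stood above all whole-tooth ranks, and ectoderm replicate 2 lay between lower and upper molar. By signal the order was lost, with ranks of 223 and 137 in sorted cells and 169, 132 and 190 in the incisor, lower molar and upper molar. A smaller site 1073 bp upstream of the start was covered in 6 libraries at ranks between 24341 and 33500.

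**Figure D1:**
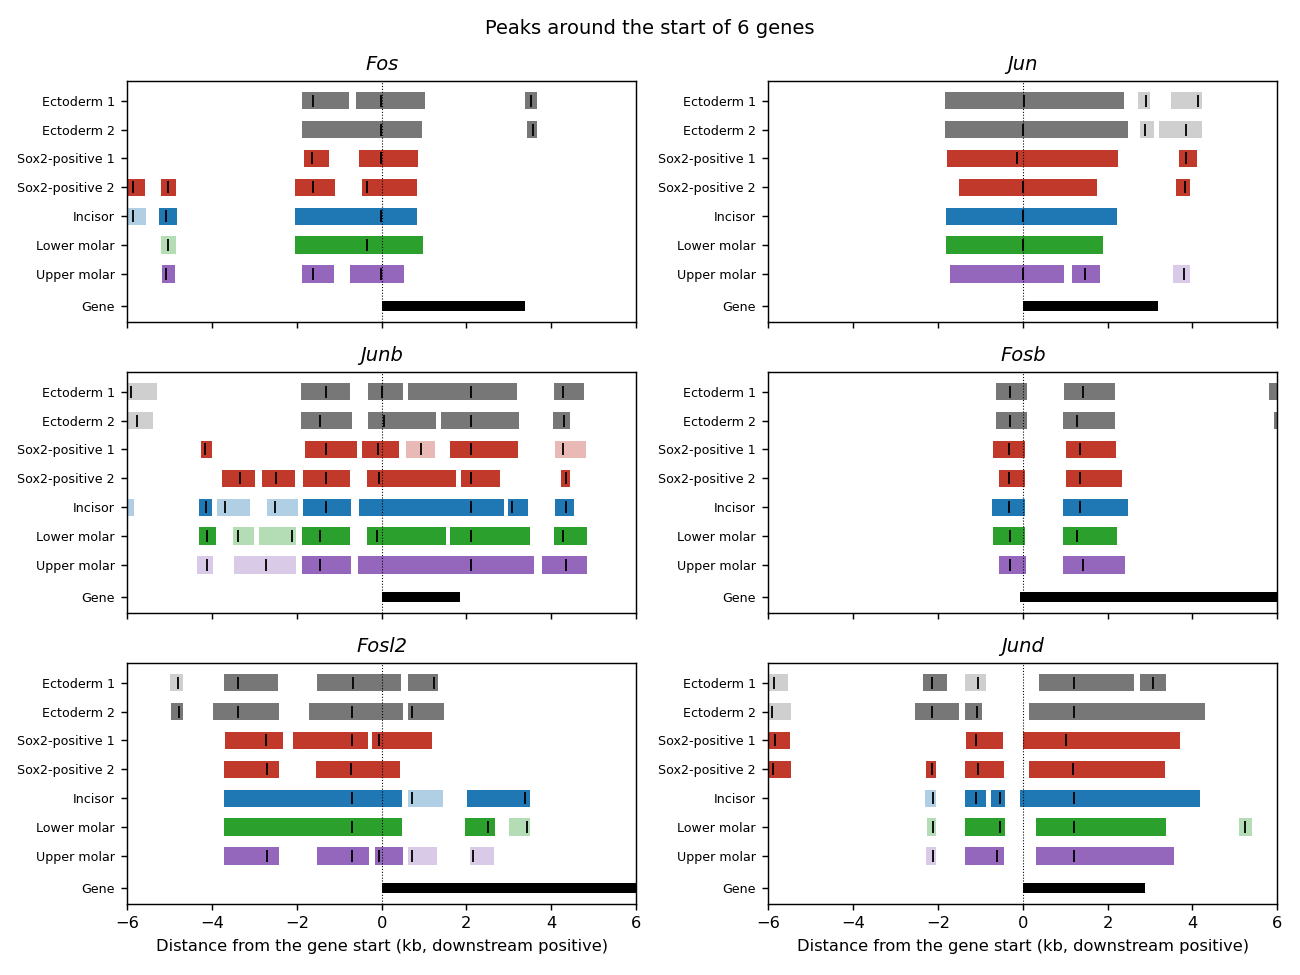
Peaks of the full lists around the starts of Fos, Jun, Junb, Fosb, Fosl2 and Jund. The horizontal axis is the distance from the gene start in kb with downstream positive, each row is a library, pale bars are peaks outside the 38000 kept per library, vertical ticks are summits and the black bar is the gene. The Jun peak spans the gene start in all 7 libraries, while the Junb summit at 2099 bp and the Jund summit at 1213 bp lie downstream of the starts.

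Fos (chr12:85473890-85477274, plus strand), the founding member of its family, had a summit 13 bp before its start that recurred within 1 bp in 5 libraries. The peak over it ranked 6710 and 4330 in ectoderm, 5778 and 4290 in sorted cells, 3962 in incisor, 4299 in lower molar and 3954 in upper molar. Sox2-positive replicate 2 lay just above lower molar and replicate 1 below every whole tooth, so the groups overlapped. A companion site 1626 bp upstream was covered in all 7 libraries. It belonged to the same peak as the start in ectoderm replicate 2, incisor and lower molar (2846, 2885 and 3026 bp wide) and to a separate peak in the other libraries, where the start peak was 1645 bp wide or less. Away from the start, the 16 regions around Fos were otherwise all intergenic, since no other protein-coding gene lay in its window, and 5 of the 16, the start included, were open in all 7 libraries. Those 4 distal regions were centred 21.7 and 18.4 kb upstream and 12.1 and 13.8 kb downstream of the start.

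Fosb (chr7:19302696-19310118, minus strand), a Fos protein that can also be made in a short stable form, had open sites on both sides of its start. The upstream summit, 309 bp before the start, ranked 13516 and 12557 in ectoderm, 11225 and 11888 in sorted cells, 9292 in incisor, 12466 in lower molar and 10502 in upper molar. The site inside the gene, 1344 bp after the start, ranked higher than the upstream one in each of the 7 libraries. It ranked 7760 and 5715 in ectoderm, 3918 and 3585 in sorted cells, 3484 in incisor, 5078 in lower molar and 5466 in upper molar. Here incisor stood above the Sox2-positive libraries and both molars below. At the upstream site incisor and upper molar stood above them and lower molar below. Sorted cells thus did not separate from whole teeth at either site.

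Fosl1 and Fosl2 encode the Fra proteins, which lack the strong activation domain of Fos. Near one end of Fosl1 (chr19:5447698-5455938), a summit 73 bp outside the gene was covered in every full list, but in only 5 libraries at equal length. It ranked 17037 and 14212 in ectoderm, 26428 in Sox2-positive replicate 2, 34738 in lower molar and 36450 in upper molar, and the peaks of Sox2-positive replicate 1 and incisor fell below the 38000 kept. Both ectoderm libraries were thus above every postnatal library at this site. A site 1617 bp beyond the other end, was covered in all 7 libraries at ranks from 3734 to 7068.

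Fosl2 (chr5:32136472-32157840, plus strand) differed among the whole teeth. Its main summit lay 700 bp before the start in all 7 libraries. The peak was 1991 and 2226 bp wide in ectoderm, 1763 and 1970 bp in sorted cells and 1232 bp in upper molar, but 4203 bp in incisor and 4196 bp in lower molar. By signal it was number 13 in incisor and 21 in lower molar, against 996 in upper molar, 914 and 181 in sorted cells and 1560 and 1091 in ectoderm. Between the replicates, Sox2-positive replicate 2 ranked 442 by −log10 p and replicate 1 ranked 3368, on either side of the 553, 784 and 2013 of incisor, lower molar and upper molar. Inside the gene, a site 17.6 kb from the start was open in all 5 postnatal libraries and in neither ectoderm library.

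Atf3 (chr1:191170296-191183333, minus strand), Egr1 (chr18:34861207-34864956) and Ier2 (chr8:84661331-84662852) were likewise open throughout. The Atf3 start peak, next to the core TGACG read on the opposite strand as CGTCA 7 to 3 bases before the start, ranked 21416 and 10871 in ectoderm, 13255 and 6769 in sorted cells, 8470 in incisor, 7878 in lower molar and 12300 in upper molar. The Sox2-positive replicates enclosed the 3 whole teeth. A region 41.1 kb upstream of Atf3 and a region 57.2 kb downstream of its start were also open in all 7 libraries. Egr1 had a strong peak with a summit 355 bp outside one end of the gene that recurred within 2 bp in all 7 libraries. It ranked 892 and 227 in ectoderm, 455 and 311 in sorted cells, 314 in incisor, 426 in lower molar and 336 in upper molar. Jun and Egr1 were the only members with a start peak among the 380 highest by signal in all 7 libraries, 2 of 10 genes against 0.629% of all genes. Ier2 is a gene of 1522 bp, and its surroundings were open beyond both ends. The summit 15 bp from one end ranked 8277 and 4686 in ectoderm, 5979 and 4577 in sorted cells, 7918 in incisor, 7030 in lower molar and 5133 in upper molar, so the sorted cells overlapped upper molar. A further summit 1303 bp outside that end was covered in all 7 libraries at ranks from 2566 to 7202.

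**Figure D2:**
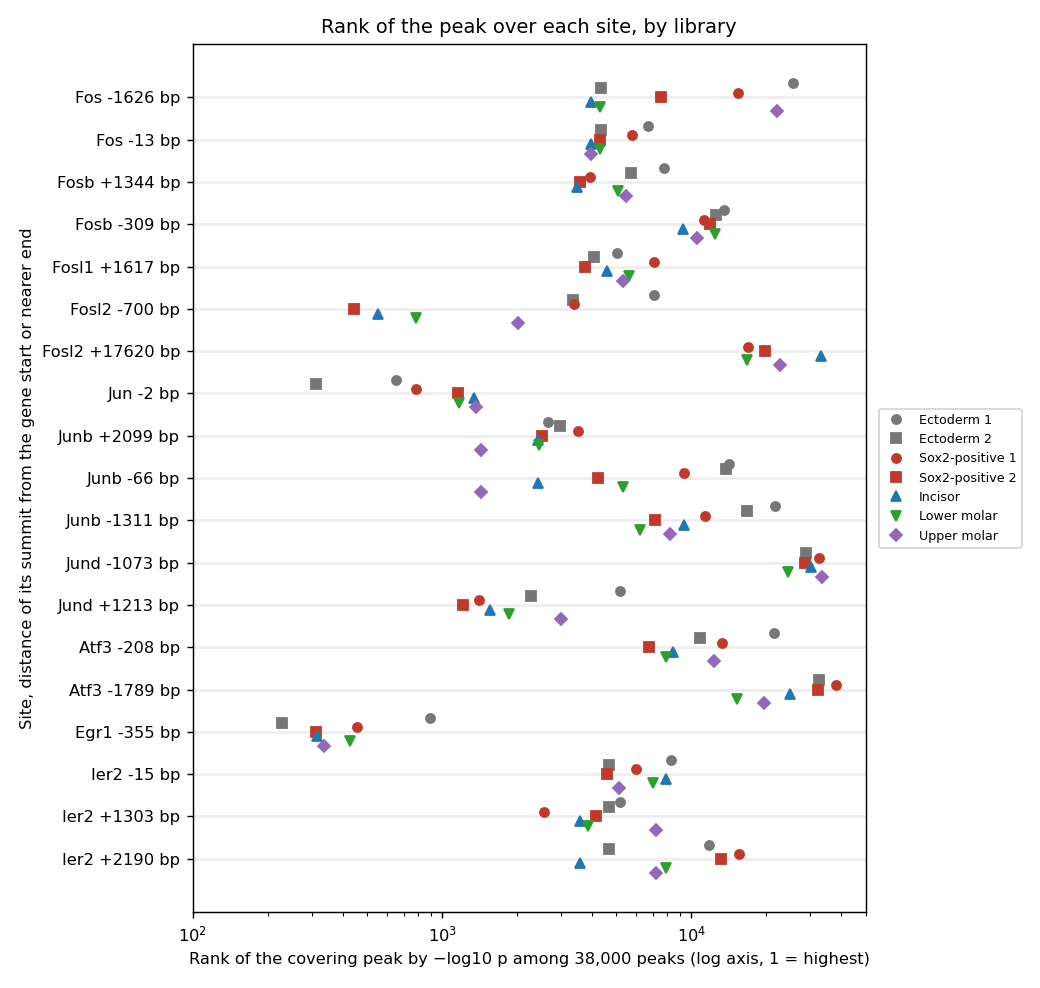
Rank of the peak covering each of the 19 recurrent summits ranked in all 5 sorted and whole-tooth libraries, by −log10 p among the 38000 peaks of each library, on a log axis where 1 is the highest. Each row is a site named by its distance from the gene start (or nearer gene end) and each symbol is a library. Egr1 and Jun hold ranks between 227 and 1368 in every library, and the Sox2-positive and whole-tooth symbols overlap at 14 sites, with the sorted cells higher at 2 and lower at 3.

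At equal length 9 of the 28 recurrent sites lacked a peak in at least 1 sorted or whole-tooth library and could not be ordered. Among them, a Jun site at 3835 bp was ranked in both sorted libraries and no tooth. A Fosl2 site at 6917 bp was ranked in both molars and no sorted library. Over the 19 recurrent sites ranked in all 5 libraries, sorted cells ranked above every tooth at 2 (Jun at the start and Jund at 1213 bp). They ranked below every tooth at 3, with overlap at 14. The 3 lower sites were the one 2099 bp downstream of the Junb start, one 1789 bp upstream of the Atf3 start and one 2190 bp outside an end of Ier2. The Atf3 site ranked 37993 and 32203 in sorted cells against 24839, 15306 and 19581 in the teeth, and the Ier2 site 15574 and 13191 against 3572, 7890 and 7202. In incisor and upper molar the peak over this Ier2 site also covered the one at 1303 bp, so no separate rank exists there. Shares over all genes were computed for gene starts only. Sorted-cell and whole-tooth ranks overlapped at 6 of the 7 starts that could be ranked. Of these 7 genes with a start summit in all 5 libraries compared, 1 ranked higher in both Sox2-positive libraries (21.6% of all genes) and 0 ranked lower (10.5% of all genes). Against ectoderm, 2 of 8 genes ranked higher in both Sox2-positive libraries (31.7% of all genes) and 1 ranked lower (23.9%). As shares of 7 or 8 genes these counts lie below those over all genes, but so few genes cannot set the members apart from other genes. The count against whole teeth rested on single libraries, since 5 genes ranked higher without Sox2-positive replicate 1 and 4 ranked lower without replicate 2. Ectoderm against whole teeth gave 1 of 7 genes higher (26.6% of all genes), which was Jun, and 3 lower (24.9%), which were Fos, Fosb and Fosl2.

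The number of peaks in the wider windows told the libraries apart in a way that turned with list length. With 38000 peaks per library, 5 of 10 genes had more peaks in both Sox2-positive libraries than in each whole tooth, against 8.97% of all genes, and none had fewer (5.04% of all genes). With all peaks, none had more (0.552% of all genes) and 5 had fewer (39% of all genes). The share of all genes called at equal length also rose with gene density. It was 16.0% for genes with 5 to 9 other protein-coding genes in the window, a class that held Fosb, Junb, Jund and Ier2, and 5.27% for genes with 0 or 1.

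The 5 genes with more peaks at equal length were Ier2, Fosb, Egr1, Jund and Jun. Ier2 had 16 and 16 peaks in sorted cells, 12, 12 and 10 in the incisor, lower molar and upper molar, and 11 and 12 in ectoderm. With the 7 libraries merged, its window held 15 regions, of which 1 was at its start. Another 5 were at starts of other genes and 6 in bodies of other genes. Peaks within a window were not assigned to genes. Fosb had 14 and 15 in sorted cells and 12, 12 and 13 in the teeth, but 16 and 17 in ectoderm. Egr1 had 9 and 8 against 6, 7 and 6 in the teeth, with 8 and 8 in ectoderm. The sorted libraries were thus the highest of all at Ier2, were exceeded by ectoderm at Fosb, and were level with ectoderm at Egr1. Jund had 8 and 10 against 7 in each tooth and 7 and 7 in ectoderm. Jun had 3 and 3 against 1, 2 and 2 in the teeth, with 2 and 4 in ectoderm. For each of these genes the exact two-sided permutation test gave p = 0.1 (Benjamini-Hochberg over the 10 genes, 0.2). This is the smallest p that 2 against 3 libraries allow. The genes are listed here because the groups did not overlap in these same counts, so the p adds no support.

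The other 5 genes overlapped at equal length. Fos had 10 and 13 peaks in sorted cells and 11, 10 and 12 in the teeth, Fosl1 had 10 and 12 against 12, 9 and 8, and Fosl2 had 7 and 9 against 8, 7 and 9. Junb had 13 and 16 against 15 in each tooth, and Atf3 had 8 and 8 against 9, 8 and 7. With all peaks, 5 genes had fewer in both sorted libraries. These were Fos with 10 and 13 against 14, 15 and 15, Fosb with 14 and 15 against 18, 16 and 18, Fosl2 with 7 and 9 against 12, 13 and 14, Junb with 15 and 16 against 18, 21 and 18, and Atf3 with 9 and 8 against 12, 11 and 11. Fosb changed sides between the settings. Ier2 had 16 and 16 against 15, 15 and 16 with all peaks, so its whole-tooth counts drew level once their weaker peaks were let in.

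**Figure D3:**
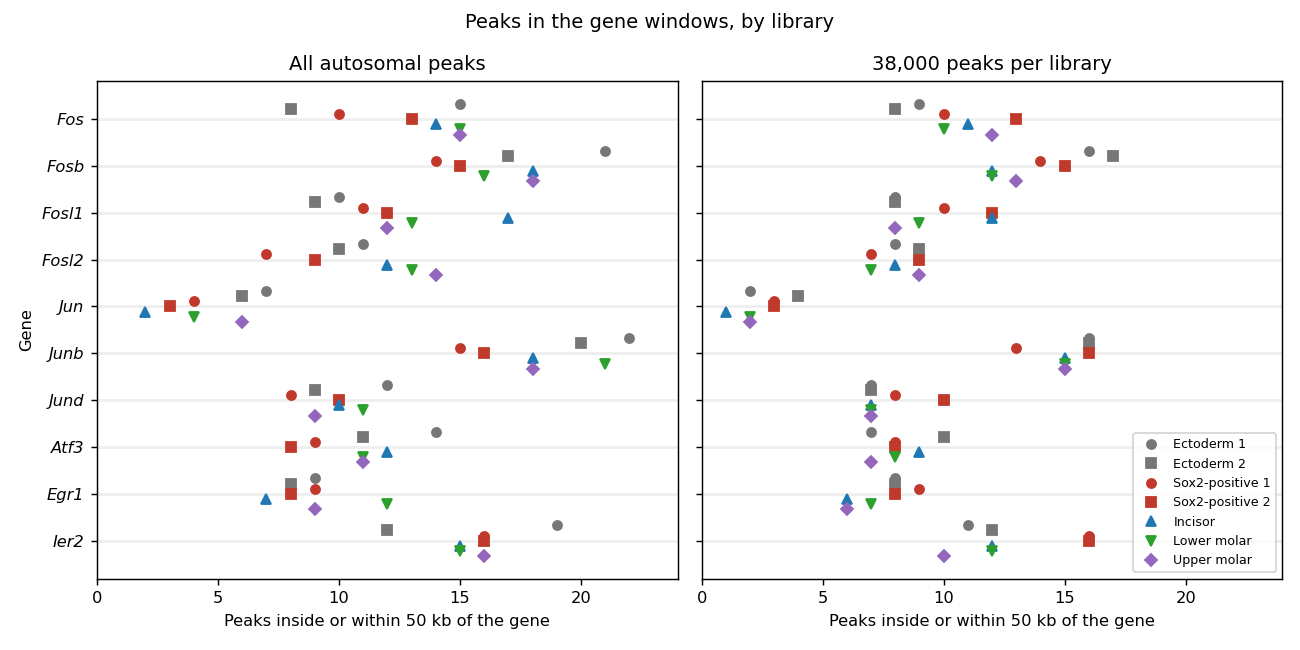
Number of peaks inside or within 50 kb of each gene, with all autosomal peaks on the left and 38000 peaks per library on the right. Each symbol is a library, red for Sox2-positive cells and grey for ectoderm. At equal length the red symbols lie right of the 3 whole-tooth symbols for Ier2, Fosb, Egr1, Jund and Jun, and with all peaks they lie right of them for no gene.

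Counted in kb under peaks, a measure added after the counts were seen, the difference shrank to 1 gene. At equal length Jun had 4.86 and 4.14 kb in sorted cells against 4.03, 4.10 and 3.34 kb in the incisor, lower molar and upper molar, and it was the 1 of 10 genes higher in both (4.12% of all genes), by a small margin over lower molar. Junb was the 1 gene lower in both (25.7% of all genes), with 12.8 and 14.2 kb against 15.4, 17.2 and 18.0 kb. With all peaks, 0 genes had more kb in both sorted libraries (0.581% of all genes) and 7 had fewer (54.9%). At equal length, at Ier2, the sorted libraries had 13.3 and 17.1 kb and the teeth 13.9, 12.3 and 11.3 kb, so that incisor lay between the replicates. Egr1 had more peaks and fewer kb on average in sorted cells, 7.93 and 6.87 kb against 7.74, 8.50 and 8.58 kb. Kept peaks were narrower in the Sox2-positive lists, with median widths of 597 and 552 bp against 668, 670 and 709 bp in the teeth. The part of this in the counts of peaks was not tested.

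**Figure D4:**
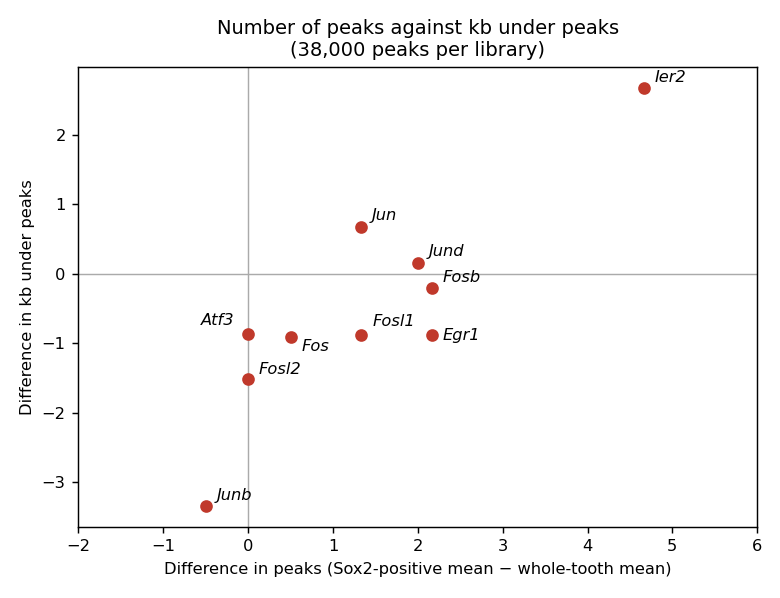
Difference between the mean of the 2 Sox2-positive libraries and the mean of the 3 whole-tooth libraries at 38000 peaks per library, in number of peaks (horizontal) and in kb under peaks (vertical), for each gene. Ier2 is highest on both axes, at 4.67 peaks and 2.68 kb, while Junb is lowest, at −0.50 peaks and −3.34 kb.

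Merged over the 7 libraries, the windows held 137 regions at equal length, of which 53 were open in all 7 libraries (38.7%, against 19.2% of all autosomal regions). With all peaks 65 of 174 were (37.4%, against 14.2%). The windows are built around genes, and 14 of the 137 regions were at starts of the 10 genes and 28 at starts of other genes. The share at gene starts was not computed for all autosomal regions, so the 2 percentages do not compare regions of like place. Of the 118 regions with a peak in a Sox2-positive or whole-tooth library, 5 were open in the sorted pair and in none of the teeth (2.77% of all regions), and 1 was open in all whole teeth and in neither Sox2-positive library (2.91%). Without Sox2-positive replicate 1 these counts were 15 and 2, and without replicate 2 they were 8 and 3. Near Jun, one such sorted-cell region lay 10.7 kb upstream (chr4:95062592-95063168, between genes) with signals of 399.2 and 392.5, and one 3.86 kb downstream of the start with signals of 315 and 215. Near Jund one lay 5.82 kb upstream with signals of 276 and 385. The remaining 2 were in the window of Ier2 but inside the body of another gene, Nfix. They had signals of 488 and 394, and of 255 and 580. With all peaks, 2 of the 5 regions remained in this class (0.516% of all regions), the one upstream of Jun and the one upstream of Jund, and the other 3 then had a peak in at least 1 tooth. The Jund region was then open in both ectoderm libraries too.

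Regions of whole teeth without the sorted cells numbered 9 in the 10 windows once all peaks were used (9.07% of all regions), and 4 of them were at Fosl2. They were centred 33.8 kb upstream of its start, 2.73 and 6.91 kb downstream of it inside the gene, and 22.1 kb downstream past its end. The one at 2.73 kb had signals of 1574, 1030 and 717 in the incisor, lower molar and upper molar. At equal length the single region of this kind was 38.2 kb upstream of Junb (chr8:85016242-85017575), with signals of 361, 2025 and 1890 in the teeth and 1592 and 815 in ectoderm.

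Embryonic ectoderm differed from the postnatal libraries in stage, tissue and handling, which cannot be told apart. With 38000 peaks, 4 of 10 genes (Fos, Fosl1, Jund and Ier2) had more peaks in both Sox2-positive libraries than in either ectoderm library (17.6% of all genes) and 1, Fosb, had fewer (20.1%). With all peaks, 1 gene (Fosl1) had more (3.07%) and 5 had fewer (41.4%). Ectoderm exceeded every whole tooth at 3 genes at equal length (Fosb, Junb and Egr1, against 20% of all genes) and at 0 with all peaks (14.6%). It lay below every tooth at 1 gene, Fos, at equal length (13.3%) and at 2, Fosl1 and Fosl2, with all peaks (13%).

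Regions open in ectoderm alone, or in all postnatal libraries and not in ectoderm, made up smaller shares of the windows than of all regions. As with the regions open in all 7 libraries, these shares do not compare regions of like place, so the difference is not a result about these genes. At equal length 8 regions in the windows were open in both ectoderm libraries and in no postnatal one, 5.84% of 137 against 12.8% of all regions. The one with the largest signals lay 21.7 kb upstream of Atf3 (chr1:191204483-191205552, 3202 and 2261 in the ectoderm replicates), and the next 24.4 kb upstream of Jun (1788 and 1216). Others lay 9.02 kb upstream of Atf3, 3.53 kb downstream of the Fos start and 5.99 kb inside Fosb. With all peaks 5 of the 8 remained open in ectoderm alone. The Jun region was not among them, since it then had peaks in the lower and upper molar with signals of 316 and 290. In the other direction 4 regions were open in all 5 postnatal libraries and in neither ectoderm library (2.92% against 6.29% of all regions). These lay inside Fosl2 as described, 37.6 kb upstream of Fos, 50.9 kb downstream of the Atf3 start and 10.7 kb upstream of Junb at the start of Hook2. With all peaks only the Fosl2 region, 1 of the 4, remained absent from ectoderm. The Fos and Atf3 regions then had peaks in ectoderm replicate 1, with signals of 405 and 541, and the Junb region in both replicates, with 206 and 408. Between Sox2-positive cells and ectoderm alone, 12 regions were found in each direction, of 129, against 14.3% of all regions for sorted cells and 18.6% for ectoderm. With all peaks the counts were 12 of 174 for ectoderm without any postnatal library (11.7% of all regions), 2 for the reverse (4.61%), inside Fosl2 and 14.3 kb outside Fosl1, 5 of 150 for sorted cells without ectoderm (7.68%) and 23 for ectoderm without sorted cells (23.2%). The shares in the windows lay below those over all regions in each of these counts, with the same limit on regions of unlike place.

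Genes of the same pathways gave no common direction. Of 11 other AP-1 family genes, 2 (Bach1 and Bach2) had more peaks in both sorted libraries than in each tooth at equal length. This was so for 8.97% of all genes, and none of the 11 had fewer (5.04% of all genes). With all peaks 0 of the 11 had more (0.552% of all genes) and 7 had fewer (39% of all genes). Atf2, Maff and Mafk had start peaks that ranked higher in both sorted libraries, 3 of 7 genes ranked, against 21.6% of all genes. Atf7 had the highest start ranks of this list in sorted cells, 562 and 612, close to the 564, 647 and 682 of the teeth. At equal length 0 of 28 other immediate early and dissociation-associated genes had more peaks (8.97% of all genes). Fewer peaks were found at 2 of the 28, Egr3 and Ppp1r15a (5.04% of all genes). With all peaks 0 of the 28 had more (0.552% of all genes) and 14 had fewer (39% of all genes). Among the 23 of these with ranked start peaks, 1 gene, Klf6, ranked higher in both sorted libraries (808 and 1106 against 1447, 1306 and 1278), where 21.6% of all genes did. In the other direction 5 genes (Nr4a3, Srf, Nfkbia, Hspa1b and Rhob) ranked lower, where 10.5% of all genes did. For Srf, which encodes serum response factor, the ranks were 1752 and 1349 in sorted cells against 937, 953 and 734. For Nfkbia, an inhibitor of NF-κB, they were 4006 and 3698 against 2232, 2024 and 2056. The median difference in peaks between sorted cells and teeth at equal length was 1.33 over the 10 genes, 1 over the other AP-1 genes, 0.167 over the other immediate early genes, 0.167 over 10 housekeeping genes and 0 over all genes. With all peaks it was −2.67, −2.67, −3.33, −1.58 and −1.5 in the same order.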

How the data were processed

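The authors deposited 1 peak list per library in narrowPeak form. Per the submitters' processing notes, FastQC, Trimmomatic, Bowtie2, deepTools and Genrich were used with the mm10 build (GRCm38). Versions, read filters and the handling of the transposase offset are not given in the sources used here. The deposited signal of a peak is its area under the significance curve, at least 200 in each list, and the deposited significance is a −log10 p-value. The files record no scaling between libraries, and the lists hold no read counts, so sequencing depth is unknown. The q-value field held −1 throughout.

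Peaks on autosomes were counted if they shared 1 bp with a gene body extended by 50 kb, using RefSeq genes of GRCm38.p6. Lists were used in full and cut to 38000 peaks by −log10 p, ties broken by signal. Starts came from the RefSeq promoter table (16457 of 20665 genes), otherwise either gene end was used. Overlapping peaks of the 7 lists were merged into regions. A gene or region was called where the libraries of 2 groups did not overlap, and each count stands beside the share of all genes or regions called alike. The 3 whole teeth are different teeth and not replicates. Nothing in the labels says whether replicates came from separate animals, so the permutation p-values cover the spread between these libraries only. Recurrent summits were those within 150 bp of each other in at least 4 libraries, up to 3 kb from the gene. All 10 genes were named, and regions open in 1 group and not in the other were named by their signal. Counting was tested on simulated peaks. Python 3.11.15, pandas 2.3.3 and numpy 2.4.6 were used. The genes, lists and alternatives were chosen with earlier results of these data known. The short motifs, the recurrent summits, the kb measure and the count of peaks reaching within 1 kb of a start were chosen after seeing the data.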

Additional observations from a re-analysis of the deposited data

How the results depend on the processing

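Counts are given in one order, namely genes with more and with fewer peaks in sorted cells than in teeth, regions of sorted cells without teeth and of teeth without sorted cells, and regions of sorted cells without ectoderm and of ectoderm without sorted cells. At 38000 peaks per library they were 5, 0, 5, 1, 12 and 12. With all autosomal peaks they became 0, 5, 2, 9, 5 and 23. With the 20000 peaks of largest −log10 p the region counts became 2, 2, 5 and 7. With a 25 kb window, genes with more peaks became 3 and the region counts became 3, 0 and 6, leaving ectoderm without sorted cells at 9. Whole incisor alone in place of the 3 teeth gave 1 gene with fewer peaks, 10 and 5 regions, and 2 genes each with a higher and a lower start rank. Counting kb under peaks gave 1 gene with more and 1 with fewer. A start within 2.5 kb gave 2 genes ranked higher and 1 lower, and ranking by signal gave 0 higher. Without Sox2-positive replicate 1 or 2, genes with more peaks ranged from 5 to 7, genes with fewer from 0 to 1, and the 4 region counts from 8 to 15, 2 to 3, 17 to 31 and 15 to 16. Genes whose start ranked higher ranged from 1 to 5 and lower from 0 to 4, with 5 higher and 0 lower without replicate 1 and 1 higher and 4 lower without replicate 2. Without ectoderm replicate 1 or 2, regions of sorted cells without ectoderm ranged from 13 to 16 and the reverse from 16 to 21. Choosing the 38000 peaks by signal, or requiring 50% of a region to be covered, moved none of these counts by more than 1.5 times. Genes with a start summit in all 7 libraries ranged from 6 to 10 over the alternatives. The cause of these changes was not tested. Read depth is unknown, so a missing peak does not show closed chromatin. No paired analysis was possible because the whole-tooth libraries carry no replicate numbers and the comparison with ectoderm comes from no test.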
